A study of Mus musculus with 12 samples.

Results

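Genes that are widely used as markers of blood vessel endothelium were followed in macrophages (Mφ) sorted from mouse hearts. The genes were Pecam1, Cdh5, Esam, Kdr, Flt1, Tie1, Tek, Egfl7, Emcn and Vwf, taken by their symbols, and they made up 10 of the 24445 gene symbols counted. All 10 were present in every count table, and all 10 passed the filter on low counts that left 14608 genes for testing. The hearts came from 12 C57BL6/J mice, 4 per group, each giving 1 library. Control mice (Ct) carried a pump delivering saline, and the time of infusion was not given for each of them in the sources used here. Mice with early concentric hypertrophy (ECH) had received isoproterenol, an agonist of β-adrenergic receptors, at 30 mg/kg/day for 14 days. Mice with heart failure (HF) had received the same dose for 28 days. The labels name no altered allele in any group. The hearts were rinsed with PBS, digested with collagenase, and enriched for CD45+ leukocytes with magnetic beads, and CD11b+ cells that carried CD14 and CD64 were then sorted after doublets and dead cells had been left out. The sources used here describe no step that removed CD31+ cells. Because the RNA was amplified from a pool of sorted cells, more RNA per cell and more cells of a type cannot be told apart in any value below.

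Endothelial cells line the inside of vessels and the chambers of the heart, and are joined to each other by junctions made of adhesion molecules. Their growth and survival depend on vascular endothelial growth factors (VEGF), which act through the tyrosine kinase receptors encoded by Kdr and Flt1, and their quiescence depends on angiopoietins, which act through the Tie receptors encoded by Tek and Tie1. Several of the 10 genes are not exclusive to endothelium: CD31, the product of Pecam1, is carried by many leukocytes and by platelets, Flt1 is used by monocytes, Tek has been described in a subset of monocytes and Mφ, and platelets contain von Willebrand factor and ESAM. The comparisons below ask whether these genes differed between saline, 14 days and 28 days of isoproterenol, and how they varied together from mouse to mouse.

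Total counts ranged from 88466559 to 111180291 per library, so that 3 counts, taken here as the limit for a count of 0, corresponded to at most 0.0349 CPM in any library. CPM stands for a count relative to the size of its library, and levels are given as CPM after scaling of library sizes by the trimmed mean of M values (TMM). The number of genes with a count was lowest in HF library 1 (13600) and reached 15940 in ECH library 4. All 12 markers of Mφ and of the sort that were examined were detected in every library. Suffixes in the sample labels divide the libraries into 2 inferred sets, 1 with all Ct libraries and ECH libraries 1 and 2, and 1 with all HF libraries and ECH libraries 3 and 4. No source states that these sets were batches, and HF and Ct never share a set, so that the set can be allowed for in that comparison only as a covariate, estimated from the 4 ECH libraries.

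The 10 genes lay at the low end of the transcriptome of these sorts. Per kilobase of exon, their mean levels over the 12 libraries ran from 0.107 CPM per kb for Emcn to 1.31 CPM per kb for Egfl7. These values stood between the 8.90th and the 32.7th percentile of the 14121 tested genes that had an exon length. By the same measure Cd14 reached 1352, Csf1r, the receptor for the Mφ growth factor CSF1, reached 714, and Fcgr1, which encodes CD64, reached 52.0. Fcgr1 was therefore 39.7 times higher than Egfl7 and 487 times higher than Emcn on the scale per kilobase. Between the ends, Esam stood at 0.896, Pecam1 at 0.863, Kdr at 0.404, Tie1 at 0.399, Vwf at 0.357, Tek at 0.322, Cdh5 at 0.170 and Flt1 at 0.126 CPM per kb. The libraries of each gene spread widely around these means, and neighbours in this order overlapped in their ranges. The exon lengths were those of the GENCODE M21 annotation, which may not be the one used for counting.

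**Figure D1:**
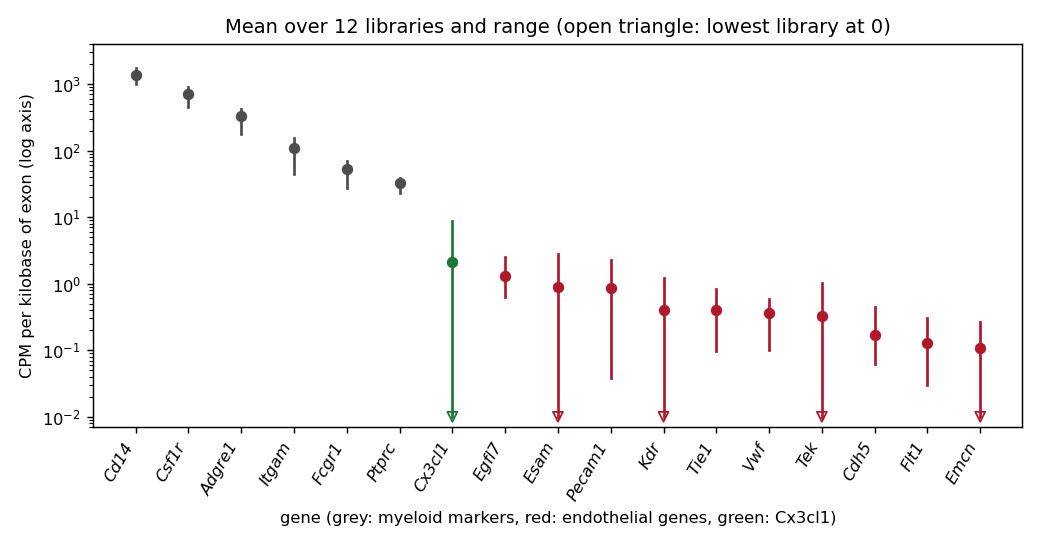
Level per kilobase of exon (CPM per kb, log axis) of the 10 endothelial genes, of Cx3cl1 and of 6 markers of myeloid cells and leukocytes, with a point at the mean of the 12 libraries, a line over their range and an open triangle where the lowest library was at 0. The endothelial genes have means between 0.107 and 1.31, against 52.0 for Fcgr1 and 1352 for Cd14.

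Counts of the 10 genes were either substantial or absent. Of the 120 values (10 genes in 12 libraries), 108 were 30 counts or more, 9 were 0 and 3 lay between 1 and 29. The zeros belonged to Esam, Kdr, Tek and Emcn and fell in 6 libraries, 3 of them in HF library 1 and 2 in Ct library 2. No zero was found among the 40 values of the ECH libraries, against 4 among those of Ct and 5 among those of HF. Over all genes tested, zeros were also fewer in ECH, at 1.91% of values against 5.63% in Ct and 5.68% in HF. Zeros made up 7.5% of the values of these genes and 4.41% of the values of all genes tested. The coefficient of variation over the 12 libraries was 36.6% for Egfl7, the lowest, and 97.4% for Emcn, the highest. Counting error alone would give between 4.09% and 12.7% at these mean counts if every count were an independent molecule, which cannot be assumed in amplified libraries without molecular identifiers.

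**Figure D2:**
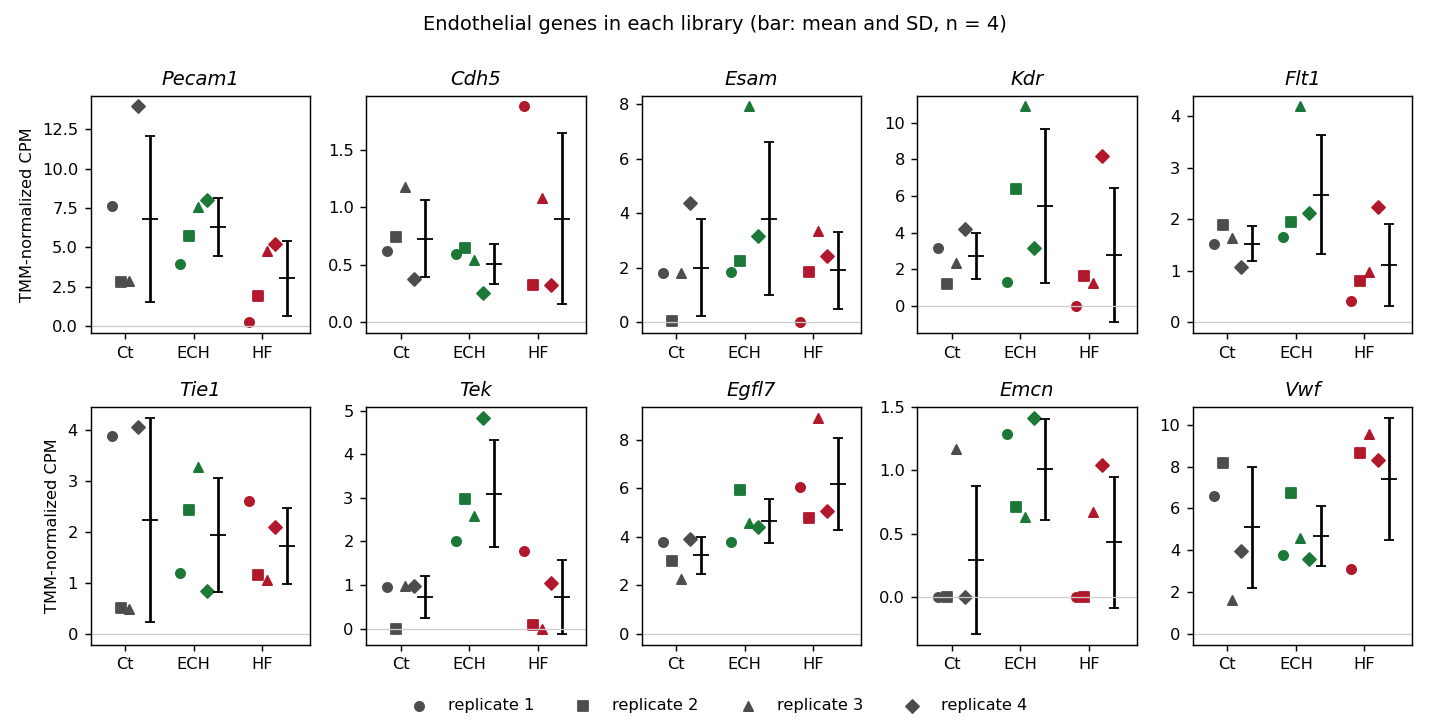
Level (CPM) of each of the 10 endothelial genes in every library, with 4 points per group, shaped by replicate number, and bars for the group mean and SD (n = 4). The 4 ECH libraries of Tek sit between 2.00 and 4.84 CPM, above all Ct and HF libraries, while the groups of most other genes overlap.

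None of the 10 genes passed the test between any of the groups. In the edgeR quasi-likelihood test, with a false discovery rate (FDR) under 0.05 over all genes tested and a fold change of at least 2, 0 of 10 were called between ECH and Ct, where 0.356% of all genes were called. Between HF and Ct 0 of 10 were called, against 0.377% of all genes, and between ECH and HF 0 of 10 were called, against 0% of all genes. At an unadjusted p under 0.05 the numbers were 0, 1 and 0 of 10, against 11.9%, 16.1% and 7.98% of all genes. DESeq2 and limma-voom with quality weights also called 0 of the 10 in each comparison. Of all 14608 genes, DESeq2 called 248, 337 and 47 in the same order, and limma-voom called 84, 130 and 0. The median log2 fold change of the 10 was 0.61 from Ct to ECH, 0.01 from Ct to HF and 0.98 from HF to ECH, where the medians over all genes were 0.01, -0.01 and 0.02. Between ECH and Ct 6 of the 10 estimates were positive, between HF and Ct 5, and between ECH and HF 7. Because ECH enters both the first and the last of these comparisons, their directions are not separate evidence. The intervals were wide: the standard errors of the 10 genes had a median of 0.78 on the log2 scale, against 0.29 over all genes.

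**Figure D3:**
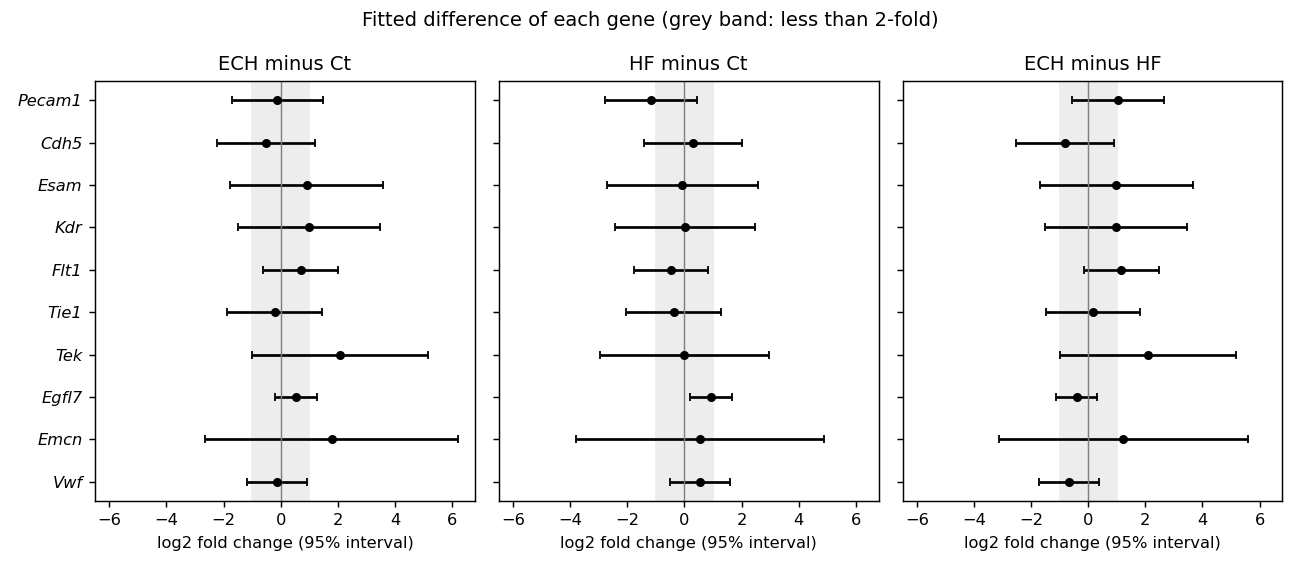
Log2 fold change of each of the 10 endothelial genes in the 3 comparisons, with bars for the 95% interval of the edgeR fit and a grey band where the change is less than 2-fold. All intervals span 0 except that of Egfl7 between HF and Ct, which runs from 0.20 to 1.67.

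The first role examined was adhesion at the junctions between cells. Pecam1 (chr11:106654217-106750628, minus strand, GRCm38) encodes CD31, an adhesion molecule of the lateral border of endothelial cells. It stood at 7.62, 2.80, 2.85 and 13.9 CPM in Ct libraries 1 to 4, at 3.92, 5.72, 7.55 and 8.0 CPM in the ECH libraries, and at 0.239, 1.89, 4.75 and 5.25 CPM in the HF libraries. The highest value, in Ct library 4, came from 1441 counts and the lowest, in HF library 1, from 25 counts, and the groups overlapped. Means were 6.8 ± 5.27 CPM in Ct, 6.30 ± 1.86 in ECH and 3.03 ± 2.38 in HF (SD, n = 4). The log2 difference was -1.17 from Ct to HF (95% interval -2.78 to 0.44, edgeR FDR = 0.475) and 1.05 from HF to ECH (interval -0.55 to 2.66, edgeR FDR = 0.782). From Ct to ECH it was -0.11, with an edgeR FDR of 0.975, and this estimate was 0.51 without Ct library 4. Without the same library the difference from Ct to HF was -0.54 (edgeR FDR = 0.776), and with the inferred set as a covariate it was -1.85 (edgeR FDR = 0.565).

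Cdh5 (chr8:104101625-104144511, plus strand), the gene of VE-cadherin, is the most specific of the junction genes for endothelium. It was at 0.620, 0.744, 1.17 and 0.377 CPM in Ct, at 0.594, 0.650, 0.538 and 0.259 CPM in ECH, and at 1.88, 0.323, 1.08 and 0.322 CPM in HF. HF library 1, in which Pecam1 was lowest, had the highest Cdh5 value of the 12, from 196 counts. Group means were 0.729 ± 0.333 CPM in Ct, 0.510 ± 0.173 in ECH and 0.900 ± 0.742 in HF (SD, n = 4). No comparison reached an edgeR FDR below 0.849. The estimate from Ct to HF was 0.30 on the log2 scale, -0.34 without HF library 1 and 0.94 with the inferred set as a covariate.

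Esam (chr9:37528078-37538319, plus strand) encodes an immunoglobulin-like molecule of endothelial tight junctions that is also present on platelets. Ct libraries held 1.81, 0.0465, 1.80 and 4.36 CPM, ECH libraries 1.83, 2.26, 7.91 and 3.16 CPM, and HF libraries 0, 1.84, 3.35 and 2.45 CPM. Ct library 2 had only 4 counts and HF library 1 had none, whereas the other 10 libraries had at least 178. The log2 difference from Ct to ECH was 0.92, with a standard error of 1.24 and an edgeR FDR of 0.822. From HF to ECH it was 0.99 (edgeR FDR = 0.922) and from Ct to HF -0.07 (edgeR FDR = 0.986). The last of these was 0.34 without HF library 1, 0.65 without Ct library 4 and -1.51 with the inferred set as a covariate. Without ECH library 3, the highest of the 12, the difference from Ct to ECH was 0.27 and that from HF to ECH 0.34. The former was 1.64 without Ct library 4 and 0.029 with the inferred set as a covariate.

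The VEGF receptors were the next role. Kdr (chr5:75932827-75978458, minus strand) encodes VEGFR2, the main signalling receptor for VEGF-A, and Flt1 (chr5:147561604-147726011, minus strand) encodes VEGFR1, which binds VEGF-A, VEGF-B and placental growth factor and acts in part as a decoy. As this receptor pair had one of the higher correlations across the 12 libraries, though not within each library set, the 150 bases before the RefSeq start of each are shown, 5′ to 3′ on the minus strand of GRCm38.p6, at chr5:75978456-75978605 for Kdr and chr5:147726012-147726161 for Flt1.
Kdr: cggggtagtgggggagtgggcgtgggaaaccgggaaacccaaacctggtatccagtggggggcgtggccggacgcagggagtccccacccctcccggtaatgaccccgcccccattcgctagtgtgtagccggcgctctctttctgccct
Flt1: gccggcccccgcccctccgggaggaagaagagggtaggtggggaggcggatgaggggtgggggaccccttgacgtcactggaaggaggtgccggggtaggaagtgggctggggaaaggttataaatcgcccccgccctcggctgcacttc
No letter is in capitals because none of the 3 motifs searched on both strands was in these windows. The first motif, for ETS factors, was CAGGAAG. A longer one for FOX and ETS factors together, which can overlap the first, was AACAGGAA. The last, for GATA factors, was AGATAA.

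Kdr stood at 3.19, 1.19, 2.35 and 4.19 CPM in Ct, at 1.33, 6.40, 10.9 and 3.16 CPM in ECH, and at 0, 1.66, 1.27 and 8.17 CPM in HF. Libraries of the same group differed widely, from 134 to 1212 counts within ECH and from 0 to 914 counts within HF. The mean was 2.73 ± 1.27 CPM in Ct, 5.44 ± 4.19 in ECH and 2.77 ± 3.66 in HF (SD, n = 4). The log2 difference was 1.0 from Ct to ECH (interval -1.48 to 3.47, edgeR FDR = 0.783) and 0.97 from HF to ECH (interval -1.5 to 3.45, edgeR FDR = 0.915). From Ct to HF it was 0.02, with an edgeR FDR of 0.995, and -1.48 without HF library 4. Without ECH library 3 the difference from Ct to ECH was 0.41 and that from HF to ECH 0.39, and the latter was 2.48 without HF library 4.

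Flt1 was steadier, with 1.52, 1.88, 1.65 and 1.07 CPM in Ct, 1.65, 1.95, 4.19 and 2.12 CPM in ECH, and 0.412, 0.803, 0.978 and 2.24 CPM in HF. In this gene 3 of the 4 HF libraries lay below all Ct libraries, and HF library 4 lay above them. The mean was 1.53 ± 0.340 CPM in Ct, 2.48 ± 1.16 in ECH and 1.11 ± 0.792 in HF (SD, n = 4). The difference from HF to ECH was 1.16 on the log2 scale (interval -0.15 to 2.47, unadjusted p = 0.0781 and FDR = 0.670 with edgeR). It was 1.76 without HF library 4 and 0.78 without ECH library 3. Among the ECH and HF libraries of the same inferred set it was 1.5 (edgeR FDR = 0.339), and among the ECH and Ct libraries of the same set the difference from Ct to ECH was 0.23, against 0.69 with all libraries.

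The Tie receptors differed in pattern from each other. Tek (chr4:94739289-94874976, plus strand) encodes Tie2, the receptor for angiopoietins. It was at 0.960, 0, 0.971 and 0.987 CPM in Ct, at 2.00, 2.97, 2.58 and 4.84 CPM in ECH, and at 1.78, 0.0831, 0 and 1.05 CPM in HF. All 4 ECH libraries, with 202 to 560 counts, were above all 8 others, the highest of which was HF library 1 with 186 counts. Genes whose ECH libraries all lay above all Ct libraries made up 4.33% of the genes tested, and those with ECH above all HF libraries made up 3.56%, and 1 of the 10 endothelial genes did so in each case. The mean was 3.10 ± 1.23 CPM in ECH and 0.729 CPM in each of Ct (± 0.486) and HF (± 0.848) (SD, n = 4). The log2 difference was 2.08 against either group, with 95% intervals from -1.0 to 5.17. The edgeR FDR was 0.617 against Ct and 0.773 against HF. Over the alternative settings the estimate against Ct ran from 1.66 to 2.84 with FDR between 0.380 and 0.951, and the estimate against HF from 1.66 to 5.28 with FDR between 0.271 and 1.0. Within the inferred sets the estimates were 1.75 against Ct and 2.34 against HF.

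Tie1 (chr4:118471191-118490061, minus strand) encodes a receptor that binds no angiopoietin on its own but modulates signalling by Tie2. It was at 3.88, 0.512, 0.485 and 4.06 CPM in Ct, at 1.19, 2.42, 3.27 and 0.847 CPM in ECH, and at 2.60, 1.14, 1.05 and 2.09 CPM in HF. The Ct libraries fell into a high pair (1 and 4) and a low pair (2 and 3), which between them enclosed every ECH and HF value. Means were 2.23 ± 2.01 CPM in Ct, 1.93 ± 1.12 in ECH and 1.72 ± 0.752 in HF (SD, n = 4). The log2 differences from Ct were -0.21 in ECH and -0.38 in HF, with edgeR FDR of 0.946 and 0.858.

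The last group held a secreted factor, a sialomucin and a clotting factor. Egfl7 (chr2:26580014-26593120, plus strand) encodes a secreted protein of the vessel wall and is the host gene of miR-126, a microRNA abundant in endothelium. Its locus overlaps Agpat2 on the opposite strand, Gm20532, and the microRNA genes Mir126a and Mir126b. The mature mmu-miR-126a-3p lies at chr2:26591402-26591423 on the plus strand of GRCm38.p6 and is shown as RefSeq gives it, to identify the microRNA this gene carries, with the seed (bases 2 to 8) in capitals.
mmu-miR-126a-3p: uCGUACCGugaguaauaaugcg
Mir126a itself had between 0 and 2 counts, above 0 in 3 of the 12 libraries, and Mir126b had none. A library of poly(A) RNA does not measure mature microRNA, and these counts therefore say nothing about the level of miR-126.

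Egfl7 stood at 3.76, 3.01, 2.24 and 3.92 CPM in Ct, at 3.76, 5.92, 4.55 and 4.38 CPM in ECH, and at 6.03, 4.75, 8.90 and 5.04 CPM in HF. All 4 HF libraries were above all 4 Ct libraries, a pattern that 4.59% of all genes tested showed in this comparison and 1 of the 10 endothelial genes. Means were 3.23 ± 0.768 CPM in Ct, 4.65 ± 0.908 in ECH and 6.18 ± 1.90 in HF (SD, n = 4). The difference from Ct to HF was 0.93 on the log2 scale (SE 0.34, interval 0.20 to 1.67, unadjusted p = 0.0170 with edgeR). After adjustment over all genes its edgeR FDR was 0.222, and over the alternative settings the FDR ran from 0.0699 with DESeq2 to 0.462 with the inferred set as a covariate. The difference from Ct to ECH was 0.52 (edgeR FDR = 0.594) and that from HF to ECH was -0.41 (edgeR FDR = 0.837). No source used here gives the strand setting of the counting, so reads of Agpat2 and Egfl7 may not have been kept apart. Agpat2 was far more abundant, at 53.5 ± 15 CPM in Ct, 49.3 ± 11.2 in ECH and 57.8 ± 11.7 in HF (SD, n = 4), and its part in the Egfl7 values was not tested.

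Emcn (chr3:137341067-137432185, plus strand) encodes endomucin, a sialomucin of capillary and venous endothelium. It was at 0, 0, 1.17 and 0 CPM in Ct, at 1.29, 0.708, 0.628 and 1.42 CPM in ECH, and at 0, 0, 0.671 and 1.05 CPM in HF. No library lay between 0 and 70 counts, so that the gene was either absent or present at a level near that of its other positive libraries. It was present in 1 of 4 Ct, 4 of 4 ECH and 2 of 4 HF libraries. The single positive Ct library, with 116 counts, lay within the range of the ECH libraries. The log2 difference from Ct to ECH was 1.78, with a standard error of 2.06 and an edgeR FDR of 0.783. With all libraries kept the estimate was 6.01 with limma-voom and 6.79 with the replicate block, and without Ct library 3 all Ct libraries were at 0 and no fold change is given.

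Of the 10 genes, 6 had a promoter in the RefSeq table, with 8 promoters in all among 32851 of mouse. Among the 6 genes searched, Egfl7 and Emcn were those that held the motifs in the 250 bases before a start. CAGGAAG was in 10.8% of the promoters of that length in this set and AACAGGAA in 2.25%, and AGATAA, found in none of the 8, was in 9.99%. The motifs are shown in capitals in the 150 bases before the first RefSeq start of Egfl7 (chr2:26580933-26581082, plus strand) and the 250 bases before that of Emcn (chr3:137340828-137341077, plus strand, where the match reads on the opposite strand), 5′ to 3′ on GRCm38.p6. In both sequences overlapping matches of CAGGAAG and AACAGGAA are written as 1 stretch of capitals, and Egfl7 holds a separate match of CAGGAAG on the opposite strand.
Egfl7: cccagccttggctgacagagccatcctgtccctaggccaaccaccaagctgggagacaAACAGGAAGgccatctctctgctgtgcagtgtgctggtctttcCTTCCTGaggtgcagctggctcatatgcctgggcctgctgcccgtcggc
Emcn: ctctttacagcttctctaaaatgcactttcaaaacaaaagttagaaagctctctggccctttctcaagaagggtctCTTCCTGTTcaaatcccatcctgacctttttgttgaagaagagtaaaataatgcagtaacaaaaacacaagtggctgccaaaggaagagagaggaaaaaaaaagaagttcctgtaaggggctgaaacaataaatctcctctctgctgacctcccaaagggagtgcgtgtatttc
A match to these letters describes the sequence and is not a measured binding site.

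Vwf (chr6:125546774-125686679, plus strand) encodes von Willebrand factor, which endothelial cells store and release and which megakaryocytes pack into platelets. It was at 6.61, 8.19, 1.63 and 3.95 CPM in Ct, at 3.79, 6.74, 4.6 and 3.59 CPM in ECH, and at 3.09, 8.68, 9.58 and 8.33 CPM in HF. HF libraries 2, 3 and 4 were above all others, and HF library 1 was below all but 1 of them, Ct library 3. The mean was 5.09 ± 2.90 CPM in Ct, 4.68 ± 1.44 in ECH and 7.42 ± 2.93 in HF (SD, n = 4). The log2 difference was 0.54 from Ct to HF (edgeR FDR = 0.638) and 0.25 without Ct library 3 (edgeR FDR = 0.805). It was 1.12 without Ct library 2 and HF library 1 (edgeR FDR = 0.271), libraries chosen with earlier results of these data known. From Ct to ECH it was -0.12 (edgeR FDR = 0.950). Beside this gene, the summed level of 10 platelet and megakaryocyte genes ranged from 9.85 to 19.7 CPM in Ct, from 8.17 to 68.5 CPM in ECH and from 47.4 to 96.0 CPM in HF, most of it from Ppbp, a platelet chemokine. The other 9 genes summed to 2.34 ± 0.728 CPM in Ct, 1.71 ± 0.478 in ECH and 2.63 ± 1.16 in HF (SD, n = 4), with overlapping ranges. Of these 10 genes 5 were high enough to be tested and 0 were called, and those too low included the glycoprotein genes Gp1bb, Gp9, Gp6 and Gp5. The part of platelet RNA in the Vwf values was not tested.

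Summed over the 10 genes, the level was 25.4 ± 9.73 CPM in Ct, 33.9 ± 10.5 in ECH and 26.2 ± 9.20 in HF (SD, n = 4), and the ranges of the groups, 16.3 to 36.9, 21.4 to 46.7 and 16.0 to 36.0 CPM, overlapped. The sum took between 0.00156% and 0.00487% of all counts of a library. Its make-up differed from mouse to mouse. Pecam1 accounted for 37.8% of the sum in Ct library 4 and for 1.49% in HF library 1. Vwf accounted for 44.6% in Ct library 2 and for 9.86% in ECH library 3. Egfl7 accounted for 37.6% in HF library 1 and for 9.74% in ECH library 3, and Kdr for between 0% and 23.3%. The leading gene of the sum was thus Pecam1 in some mice and Vwf, Egfl7 or Kdr in others.

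**Figure D4:**
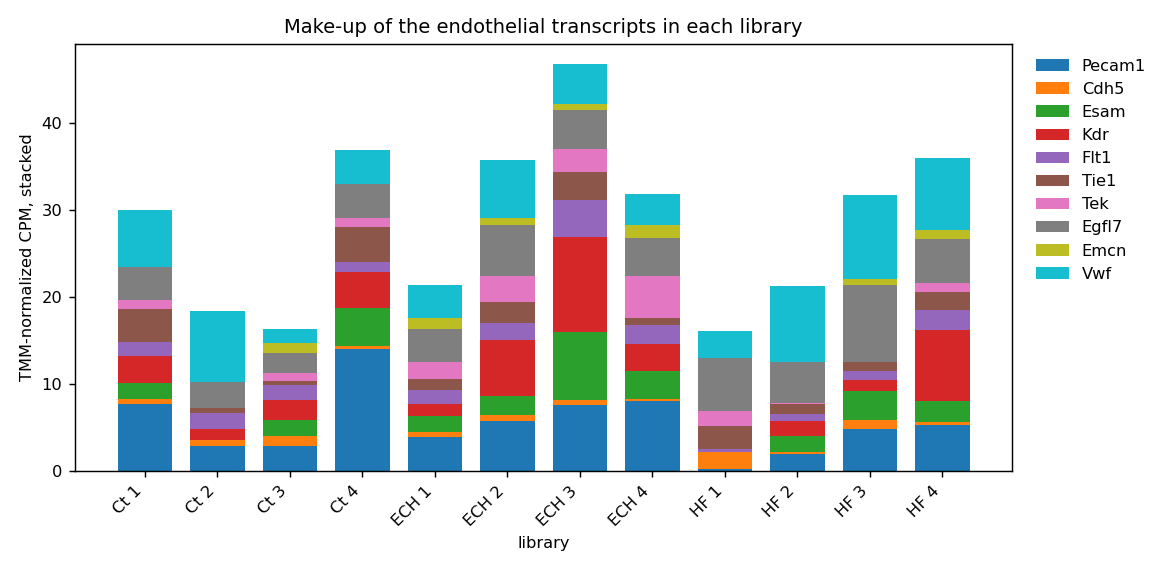
Summed level of the 10 endothelial genes (CPM) in each of the 12 libraries, stacked by gene. The sums run from 16.0 in HF library 1 to 46.7 in ECH library 3, and the shares of Pecam1, Vwf and Egfl7 change from library to library.

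The 10 genes did not vary as a block. Over the 45 pairs, Pearson's r of log2(CPM + 0.1) across the 12 libraries had a median of 0.166 and ran from -0.677 to 0.859, with 29 positive and 9 above 0.5. With the group means subtracted the median was 0.134. All pairs share the same 12 libraries and 45 relations were tested. Of these, 4 had an adjusted p under 0.05 in the permutation test of r and 0 did so by Spearman's rho, for which the lowest adjusted p was 0.318. Pairs of other genes were not counted in the same way, so these numbers cannot be called particular to the 10 genes.

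All 4 of these pairs lay among Pecam1, Esam, Kdr and Flt1. Pecam1 and Kdr had r = 0.859 (permutation p = 0.00272, adjusted p = 0.0408) and rho = 0.713 (permutation p = 0.0122). Kdr and Flt1 had r = 0.819 (permutation p = 0.00181, adjusted p = 0.0407) and rho = 0.657 (permutation p = 0.0244). Esam and Kdr had r = 0.798 (permutation p = 0.00109, adjusted p = 0.0407) and rho = 0.643 (permutation p = 0.0290). Kdr was thus paired with Flt1 and with both junction genes, whereas Flt1 passed with Kdr but not with Pecam1 (r = 0.659, adjusted permutation p = 0.177) or Esam (r = 0.522, adjusted permutation p = 0.337). Pecam1 and Esam had r = 0.793 (permutation p = 0.00393, adjusted p = 0.0442) and rho = 0.699 (permutation p = 0.0141), and were the pair that also passed with group means subtracted (r = 0.852, adjusted p = 0.0423, exact permutation within groups). Without the 2 libraries farthest from the median of the first gene, r became 0.615 for Pecam1 and Kdr, 0.439 for Kdr and Flt1, 0.536 for Esam and Kdr and 0.528 for Pecam1 and Esam. The strength of these relations therefore rested in part on those libraries. HF library 1, which was the lowest of the 12 for all 4 of these genes, bore on each pair, and without it r was 0.572, 0.646, 0.573 and 0.556 in the same order. This library also had the fewest genes with a count (13600), and Ct library 2 had the next fewest (14489).

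The 4 pairs were also computed within the inferred library sets. Within the set of the Ct libraries and ECH libraries 1 and 2 (6 libraries), r was 0.666 for Pecam1 and Kdr, 0.668 for Esam and Kdr and 0.659 for Pecam1 and Esam, but -0.243 for Kdr and Flt1. Within the set of the HF libraries and ECH libraries 3 and 4 (6 libraries), the values were 0.909, 0.916, 0.955 and 0.924. The second of these sets includes HF library 1, and the difference between the sets was not tested.

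Cdh5 went the other way. Its r was -0.677 with Kdr, -0.652 with Pecam1 and -0.570 with Esam, with adjusted permutation p between 0.122 and 0.277. HF library 1 was highest for Cdh5 and lowest for the others, and without it these values were -0.369, -0.304 and -0.249.

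**Figure D5:**
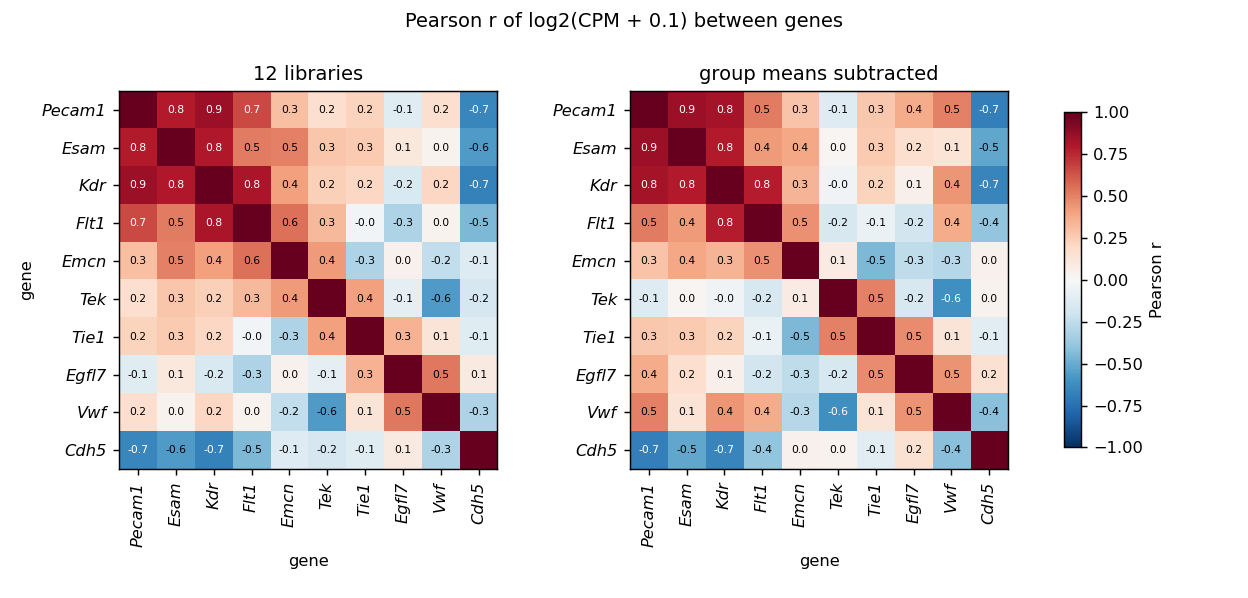
Pearson's r between each pair of the 10 endothelial genes across the 12 libraries, on log2(CPM + 0.1), as coloured grids, on the left as measured and on the right with the group means subtracted. On the left the block of Pecam1, Esam, Kdr and Flt1 holds the values up to 0.859, and Cdh5 is negative with Kdr at -0.677.

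To find the genes with the most similar pattern, the 10 genes were standardised and averaged in each library, and every other gene tested was ranked by its r with this mean, which ran from -0.744 in HF library 1 to 0.689 in ECH library 3. The measure is a description over 12 libraries. The closest were Gnptab (r = 0.938), Depdc1a, Dhx38, Igf2r, Znfx1, Khsrp, Col4a1, Sgol2a, Icmt and Wbp1l (r = 0.884), and 0 of these 10 were in any of the marker lists. They include Col4a1, a collagen of basement membranes, and Depdc1a and Sgol2a, genes of cell division. Another 34 endothelial genes had a median r of 0.354 with the mean, against 0.088 over all 14598 genes ranked, and 2 of the 34 (5.88%) were in the top 5%.

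The wider set of endothelial genes also showed no call. Of 35 others in the files (transporters, transcription factors, surface molecules), 34 were tested and 0 were called in each comparison. Their median log2 fold change was 0.39 from Ct to ECH, -0.17 from Ct to HF and 0.55 from HF to ECH. The sum over these genes was 274 ± 45.3 CPM in Ct, 269 ± 61.3 in ECH and 234 ± 6.72 in HF (SD, n = 4), led by Calcrl, Slc9a3r2, Fabp4 and Eng, which are not exclusive to endothelium. Genes that are more restricted to it spanned a wide range. Cd300lg, a surface molecule of capillaries, had a mean of 15.3 CPM, Gpihbp1, which anchors lipoprotein lipase in capillaries, 3.41 CPM and the receptor gene Adgrl4 3.04 CPM. At the low end, Erg, an endothelial transcription factor, had a highest level of 0.104 CPM, with counts in 3 libraries, and Cldn5, a tight junction gene, had no counts in 6 libraries. Plvap, which forms the diaphragms of fenestrae, had a mean of 0.196 CPM. Of the arterial genes 5 of 7 were tested, of the venous and endocardial genes 4 of 7 and of the lymphatic genes 3 of 6, with 0 called in any comparison. The lymphatic marker Pdpn, which is not exclusive to lymphatic endothelium, was at 0.332 ± 0.297 CPM in Ct, 3.99 ± 2.89 in ECH and 7.07 ± 1.84 in HF (SD, n = 4), with an edgeR FDR of 0.134 from Ct to ECH and 0.0760 from Ct to HF. Vcam1, an adhesion molecule that Mφ can also carry, was at 101 ± 50.1, 283 ± 130 and 82.6 ± 32.0 CPM (SD, n = 4), with an edgeR FDR of 0.192 from Ct to ECH and 0.491 from HF to ECH.

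Among 22 genes of the VEGF, angiopoietin and junction pathways other than the 10, 0 were called in any comparison. The median log2 fold change was 0.28 from Ct to ECH, 0.18 from Ct to HF and 0.03 from HF to ECH. Of the ligands, Vegfb had a mean of 22.4 CPM and Vegfa 8.11 CPM, while Vegfc, Pgf, Angpt1, Angpt2, Angpt4 and Figf (VEGF-D) were between 0.166 and 0.784 CPM. The coreceptor gene Nrp1, which Mφ also use, was at 465 CPM and Nrp2 at 51.1 CPM, while Flt4, which encodes the lymphatic receptor VEGFR3, was at 0.148 CPM. The endothelial phosphatase gene Ptprb, whose product acts on Tie2 and VE-cadherin, was at 2.33 CPM. The catenin genes that tie cadherins to the cytoskeleton were at 237 (Ctnnb1), 211 (Ctnna1) and 90.6 CPM (Ctnnd1). Notch1 fell short of the threshold from Ct to HF, at 44.9 ± 8.61 CPM in Ct and 26.8 ± 2.22 in HF (SD, n = 4, log2 difference -0.75, edgeR FDR = 0.0910).

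Markers of other cell types that a heart digest could bring into the gate were measured in the same libraries. The sums of 10 fibroblast genes were 519 ± 242 CPM in Ct, 854 ± 319 in ECH and 878 ± 269 in HF (SD, n = 4). Most of this was Gsn, which is not exclusive to fibroblasts, and the other 9 summed to 97.8 ± 78.9, 230 ± 154 and 159 ± 73.5 CPM. The sums of 10 cardiomyocyte genes were 171 ± 79.1, 129 ± 41.3 and 104 ± 23.4 CPM (SD, n = 4). The sums of 10 genes of mural cells, which wrap vessels, came to 10.3 ± 4.89, 10.5 ± 5.33 and 6.69 ± 1.15 CPM. In these lists 0 genes were called in any comparison.

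Cx3cl1, the gene of the chemokine fractalkine, is made by endothelium among other cells. It was at 1.93, 0, 1.18 and 1.25 CPM in Ct, at 9.55, 11.3, 16.8 and 34.4 CPM in ECH, and at 6.45, 3.57, 5.34 and 7.88 CPM in HF. The groups did not overlap, so no correlation over the pooled libraries is given. With group means subtracted, Cx3cl1 and Tek had r = 0.740 (exact permutation within groups, two-sided p = 0.0101, adjusted p = 0.101 over the 10 genes), and r with the other 9 genes ran from -0.428 to 0.551, with adjusted permutation p of at least 0.616. None of these relations passed the adjustment. Both Cx3cl1 and Tek were at 0 CPM in Ct library 2, and how far the r of 0.740 rested on this library was not tested. The edgeR FDR was 0.0828 between ECH and Ct, 0.210 between HF and Ct and 0.650 between ECH and HF. Tek, in the same order of ECH libraries, was at 2.00, 2.97, 2.58 and 4.84 CPM, and the library highest for Cx3cl1 (ECH 4) was also the highest for Tek. In HF the order differed, since Tek was highest in HF library 1 and Cx3cl1 in HF library 4.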

How the data were processed

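RNA of CD14/CD64-positive Mφ from 12 mouse hearts (4 Ct, 4 ECH, 4 HF) was amplified with SMART-Seq v4 and sequenced in paired ends on an Illumina NextSeq instrument. The authors trimmed reads (Trimmomatic, FastQC), aligned them to mm10 with TopHat2 and used featureCounts for gene counts. The deposited tables give raw, whole-number counts by gene symbol, before normalization. For their own comparisons the authors normalized and tested with edgeR. No source used here names the software versions, the gene annotation or the strand setting. Samples were grouped by their labels. Replicates are separate mice.

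edgeR 4.0.16 under R 4.3.3 was used on the counts of 24445 symbols. After filterByExpr 14608 genes remained. TMM scaled the library sizes, and 1 quasi-likelihood model with a mean per group was fitted to the 12 libraries (common dispersion 0.370). The Benjamini-Hochberg adjustment covered every gene that passed the filter. Calls required FDR under 0.05 and a 2-fold change. Pairs were compared by Pearson's r and Spearman's rho on log2(CPM + 0.1), with 100000 two-sided permutations, or all 13824 permutations within groups for group-centred values. Intervals are 95%. A limit of 3 counts covers counting error only. Positions and exon lengths came from GENCODE M21 (GRCm38), and promoter and microRNA sequences from RefSeq (GRCm38.p6). The alternatives were RLE or no scaling, DESeq2 1.42.0, limma-voom (limma 3.58.1) with quality weights, other filters and thresholds, a replicate block, the inferred library set, fits of 2 groups, and each library left out. The code was tested on simulated data. All 10 genes are named, other genes with their list or when they ranked among the 10 closest patterns. The 10 genes and all lists were chosen with earlier results of these data known. Figures were drawn with matplotlib 3.10.9 in Python 3.11.15.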

Additional observations from a re-analysis of the deposited data

Results flagged for a closer look

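Values of 2 genes stood apart from the rest of their group by Dixon's test, out of 30 groups of 4 libraries examined. For normally distributed values without ties, chance flags about 1 group in 20. Tek had 0 CPM in Ct library 2, while the other 3 Ct libraries lay between 0.960 and 0.987 CPM. Emcn had 1.17 CPM in Ct library 3, while the other 3 Ct libraries had 0. With 3 values tied at 0 the ratio of Dixon's test is 1 for any remaining value above 0. The flag for Emcn is therefore no measure of how far this library stood apart.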

How the results depend on the processing

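Under each alternative and with each library left out in turn, no gene of the 10 that was tested was called in any of the 3 comparisons. All 10 were tested except with the filter of more than 1 CPM in 4 libraries, which left 9, without Cdh5, and in the fit of HF and Ct alone, which left 9, without Emcn. Some estimates near 0 changed sign. From Ct to ECH, Vwf became 0.081 with limma-voom, 0.048 with the library set as a covariate, 0.043 in libraries of the same set and 0.19 without Ct library 2 and HF library 1. From Ct to HF, Tek became 0.0045 with RLE scaling, 0.0050 with DESeq2, 0.0031 without the filter and 0.0052 in a fit of 2 groups, but -3.40 with limma-voom (FDR = 0.233) and -1.36 without Ct library 2 and HF library 1, Cdh5 became -0.12 with limma-voom and -0.34 without Ct library 2 and HF library 1, and Kdr became -0.97 with limma-voom and -0.84 with the set as a covariate. With 1 library left out, estimates from Ct to ECH ran from -0.37 to 0.51 for Pecam1, from -0.59 to 0.25 for Tie1 and from -0.42 to 0.21 for Vwf. Those from Ct to HF ran from -0.34 to 0.63 for Cdh5, from -0.50 to 0.65 for Esam, from -1.48 to 0.44 for Kdr, from -0.71 to 0.083 for Tie1, from -0.94 to 0.42 for Tek and from -0.39 to 8.50 for Emcn (the upper value set against Ct libraries all at 0, so no measure of a fold change), and those from HF to ECH from -0.21 to 0.43 for Tie1. The cause was not tested.

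Deviations from the group means over all genes tested gave r between -0.0758 and 0.0833 for same-numbered libraries of different groups. Differently numbered ones gave r between -0.139 and 0.118. With 4 libraries per group these values cannot settle whether the numbers pair the mice. With the replicate block Tie1 became 0.35 from Ct to ECH and Kdr -0.95 from Ct to HF, and 22, 18 and 0 of all genes were called between ECH and Ct, HF and Ct, and ECH and HF, against 52, 55 and 0 without it. The same counts were 248, 337 and 47 with DESeq2, 84, 130 and 0 with limma-voom, 22, 208 and 272 with the set as a covariate, 8, 41 and 0 in fits of 2 groups, and 105, 114 and 0 at an FDR under 0.1. Libraries of the same set gave 1 between ECH and Ct and 370 between ECH and HF, and this fit was not possible between HF and Ct. With 1 library left out the counts ran from 11 (without Ct 1) to 95 (without Ct 3), from 15 (without Ct 1) to 103 (without Ct 3), and stayed at 0. The median r of the 45 pairs, 0.166, was 0.0892 without Ct library 2 and HF library 1, 0.282 within the set of the Ct libraries and 0.0840 within that of the HF libraries, and ran from 0.106 to 0.193 with 1 library left out. Of the 10 genes closest in pattern, 8 stayed with 1 CPM added and 3 with group means subtracted.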
